A study of Caenorhabditis elegans with 12 samples.

Results

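The arms of chromosome II of Caenorhabditis elegans carried 348 of the 2710 edited regions in the deposited table, with 10885 of its 82895 A-to-G sites. A site is an adenosine of the genome that read as guanosine in RNA. Neighbouring sites, whichever strand they lay on, were joined into one region when no more than 1000 bp separated them. A region was placed on an arm if its midpoint lay in the first or last 33.3% of the chromosome. The highest listed coordinate, 15239361, stood for the chromosome's length, so each arm measured 5.08 Mb and 73 further regions lay in the centre. The left arm held 141 regions and the right arm 207. The sites came from RNA-seq of the wild-type strain Bristol N2, with 12 libraries of ribosomal RNA-depleted total RNA from 6 numbered stages (embryo, 4 stages labelled L1-L4, and Young Adult). Each stage gave 1 mock library, left at room temperature, and 1 library digested with RNase R, an exonuclease that removes linear RNA and spares circles. All groups shared the wild-type genotype. The table names no library, so no value below belongs to a stage or treatment, and no spread over replicates exists. Its genome build is likewise not given in the sources used here, and its coordinates differ from those of the WBcel235 annotation. Overlap with genes, exons, introns and UTRs was therefore not examined.

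ADAR enzymes deaminate adenosine to inosine in double-stranded RNA, and sequencing reads inosine as guanosine. In C. elegans the deaminase is ADR-2, and the related protein ADR-1, which lacks deaminase activity, modulates its action. Double strands form when an RNA contains a sequence and its reverse complement, an inverted repeat, which folds back into a hairpin. The arms of worm autosomes are known to be richer in repeated sequence than the centres. ADARs act poorly on adenosines that follow a guanosine.

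Each site was listed with the bases on either side of it, so overlapping triplets spelled stretches of the genome at and around the sites. Sequences below are written 5′ to 3′ on the named strand, with listed sites in capitals and bases that no triplet covered as n. The longest gapless stretch among the 10 regions with the most sites, chrII:3320268-3320341 on the minus strand, had 27 listed sites in 74 bases and shows how densely neighbouring adenosines were listed.
Gapless stretch, minus strand: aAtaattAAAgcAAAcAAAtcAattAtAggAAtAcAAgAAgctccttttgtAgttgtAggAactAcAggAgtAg
Only the longest gapless stretch of each region was taken. The next longest of these were short: 22 bases at chrII:435111-435132, 19 at chrII:1827754-1827772 and at chrII:13190291-13190309, and 18 at chrII:4126797-4126814. The last of these had 9 listed sites on the plus strand.
Short stretch, plus strand: cAtAgaAatAAcAAAaAt

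Several regions spelled the 2 sides of an inverted repeat, and the 3 with the most paired bases are shown so that the complementary letters can be seen. No RNA structure was measured. In each pair, the first stretch is read on the plus strand and the second on the minus strand, so equal letters are bases that can pair with each other in an RNA that contains both. The pair with the most paired bases lay in the region chrII:15114363-15115179. Its stretches spanned 323 bp each, and 114 of 115 known pairs were complementary. The windows of 100 bases shown from them, chrII:15114385-15114484 and chrII:15115046-15115145, had 57 positions known on both sides, and all 57 were complementary.
First stretch, plus strand: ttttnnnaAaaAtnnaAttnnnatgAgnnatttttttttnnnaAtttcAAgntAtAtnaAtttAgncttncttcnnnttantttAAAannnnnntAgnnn
Second stretch, minus strand: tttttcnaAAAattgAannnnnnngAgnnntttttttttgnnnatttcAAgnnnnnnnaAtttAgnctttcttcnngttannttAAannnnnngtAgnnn
In the region with the most sites, chrII:1827299-1829358, the stretches spanned 252 bp each, and 69 of 70 known pairs were complementary. The windows shown from them, chrII:1827724-1827823 and chrII:1828353-1828452, had 41 known pairs, of which 40 were complementary. No listed site lay on the minus strand of the second window, so it is shown on both strands.
First stretch, plus strand: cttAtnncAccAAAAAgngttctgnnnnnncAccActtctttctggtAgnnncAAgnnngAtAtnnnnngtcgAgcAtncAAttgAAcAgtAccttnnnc
Second stretch, minus strand: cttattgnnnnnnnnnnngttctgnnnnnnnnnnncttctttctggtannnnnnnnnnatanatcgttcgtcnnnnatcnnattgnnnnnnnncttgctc
Second stretch, plus strand: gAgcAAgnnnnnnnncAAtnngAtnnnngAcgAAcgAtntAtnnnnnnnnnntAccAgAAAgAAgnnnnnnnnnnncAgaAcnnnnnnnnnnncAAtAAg
The third pair, chrII:431219-431291 and chrII:435098-435170, lay 3806 bp apart at the 2 ends of its region and had 48 complementary bases among 49 known pairs.
First stretch, plus strand: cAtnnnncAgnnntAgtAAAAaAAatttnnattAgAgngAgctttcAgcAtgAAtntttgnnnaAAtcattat
Second stretch, minus strand: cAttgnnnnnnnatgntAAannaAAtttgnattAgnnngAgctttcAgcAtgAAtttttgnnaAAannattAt

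A search for such pairs in all regions of the chromosome counted 1 for each complementary known pair and subtracted 2 for each mismatch. A step of over 100 bp ended a stretch. In each region only the pair of stretches with the highest sum was kept, if that sum was at least 20. Sites outside the kept stretches were therefore not shown to be unpaired. Pairs with 1 stretch in each of 2 regions were not searched for. The search found pairs in 25 of the 348 arm regions (7.18%), 8 on the left arm and 17 on the right. Known pairs in them numbered 923, and 898 (97.3%) were complementary, a share that the search itself favoured; 12 of the 25 had no mismatch. Each stretch spanned 54 to 323 bp, with a median of 130, and the gap between the stretches ran from 42 to 3806 bp with a median of 297. In 21 of 25 regions the gap was under 500 bp. These regions were large: they held 32 to 352 sites each and 3294 sites in all, or 30.3% of the sites on the arms. Of the arm regions with at least 100 sites, 14 of 25 contained a pair, and a pair can be seen only where many bases are spelled. All 25 arm regions with a pair were among the 94 with at least 30 sites. Sites lay on both strands in 18 of them, from 57 such arm regions, and on 1 strand in 7, from 291. Where sites lie on 1 strand, uridines of that strand are spelled only beside listed adenosines, so a pair is harder to see. None of the 73 centre regions had a pair, which allows a share of up to 4.11% (3 counts of 73, for counting error only). Only 19 centre regions had at least 30 sites, 5 had at least 100 and 7 had sites on both strands. The limit also counts the smaller regions, where a pair could hardly be seen, and is wider for the larger ones alone. The difference between arms and centre was not tested.

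The listed sites were arranged on the stretches in different ways. In 9 of the 25 regions both stretches carried sites on the same strand alone. The region chrII:1515430-1516273 is an example, with 48 minus-strand sites in the first stretch and 57 in the second, and median scores of 4 and 5. The score is a whole number that the authors deposited for each site without stating what it counts. The region chrII:4125686-4127107 had 63 plus-strand sites in the first stretch and 53 in the second. In 5 regions the stretches were listed on opposite strands: chrII:12263322-12263676 had 18 minus-strand sites in the first stretch and 34 plus-strand sites in the second, with none on the other strands. The remaining 11 were mixed.

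In the 16 regions with opposite or mixed strands, 205 of 461 sites in first stretches (44.5%) faced a listed site of the opposite strand at the exactly mirrored position of the second stretch. Every one of these 16 regions had at least 5 such mirrored sites, and chrII:15114363-15115179 had the most, with 47. The search itself favoured such sites, because mirrored triplets spell the complementary bases that it counts. The share expected without this was not computed. A mirrored pair of sites has the same sequence on its own strand wherever the stretches are fully complementary. RNA read from both strands and reads placed on the wrong copy cannot be told apart in this table.

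**Figure D1:**
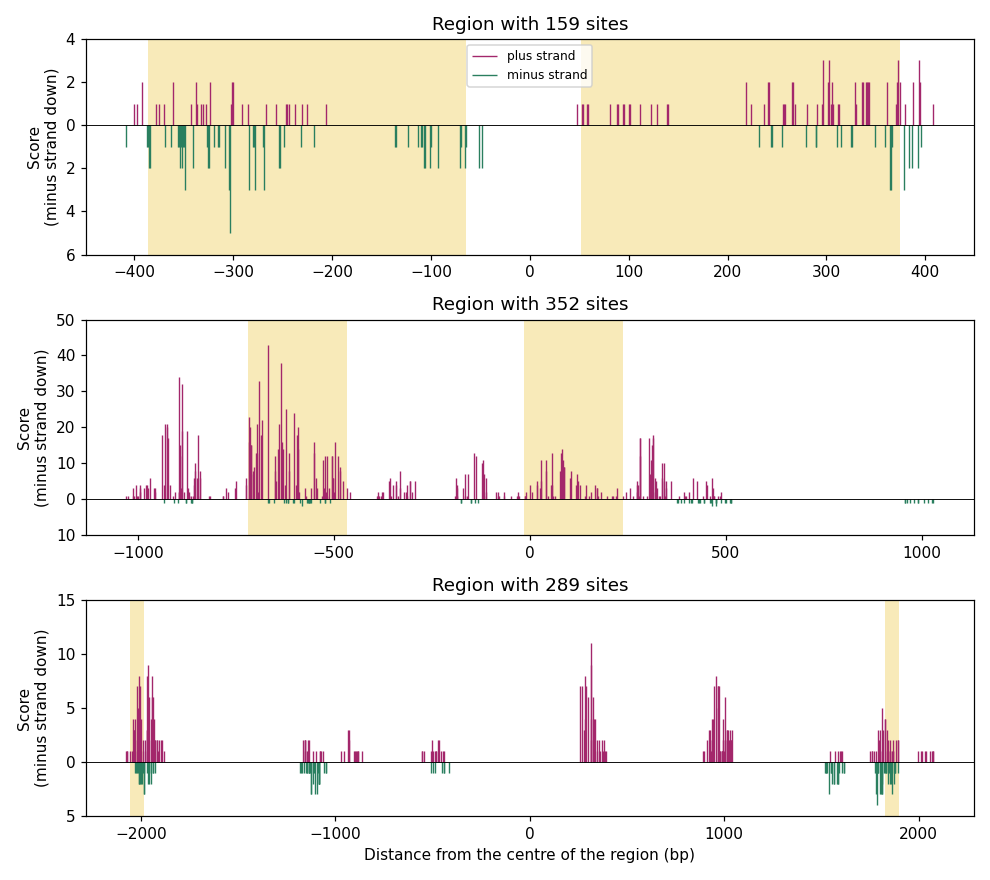
Score of each listed site (vertical axis, plus strand upward and minus strand downward) against its distance from the centre of the region (bp), for the 3 arm regions with the most paired bases. Shading marks the 2 reverse-complementary stretches of the single pair kept in each region. They hold 141 of the sites in the region with 159 sites, and 129 and 61 in those with 352 and 289 sites. Sites outside the shading were not shown to be unpaired.

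The score along these regions was uneven, as the plot of scores against distance shows. In chrII:1827299-1829358 the first stretch reached a score of 43 with a median of 6 over 82 sites, and the second reached 14 with a median of 4 over 47 sites. The plus strand carried 282 of its 352 sites and the highest score. In chrII:431199-435348 the kept stretches held 61 of 289 sites, and the highest score, 11, lay between them at position 433586. Whether the sites between them lie in other pairs was not tested. In chrII:15114363-15115179 scores were low throughout, with a maximum of 5, and both strands were listed about equally (85 plus and 74 minus).

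The 10 arm regions with the most sites held 2124 sites, or 19.5% of those on the arms. Of these 10 regions, 4 lay on the left arm and 6 on the right, 9 had sites on both strands and 8 contained a pair kept by the search. After the 2 left-arm regions described above came chrII:3318131-3320374 with 248 sites (133 plus, 115 minus) and chrII:4125686-4127107 with 229, all on the plus strand. The largest on the right arm was chrII:15216635-15217618 with 188 sites, 169 of them on the plus strand, a median score of 3 and a highest score of 34. In 3 of the right-arm regions the minus strand dominated: chrII:15072796-15075651 (144 of 171 sites), chrII:13682749-13684366 (161 of 167) and chrII:12872342-12873559 (157 of 163). The last of the 10, after chrII:15114363-15115179 with 159 sites, was chrII:13189855-13190967 with 124 plus-strand and 34 minus-strand sites.

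Other regions stood out by score or by density. Among arm regions with at least 20 sites, the highest median score, 6.5, belonged to chrII:14346645-14346967, which had 30 minus-strand sites and 11 scores of at least 10. Part of it, chrII:14346880-14346968, is shown for its listed adenosines.
Highest median score, minus strand: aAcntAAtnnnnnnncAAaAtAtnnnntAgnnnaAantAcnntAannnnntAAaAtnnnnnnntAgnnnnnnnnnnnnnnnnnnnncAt
It was followed by chrII:1515430-1516273 (median 5 over 147 minus-strand sites), chrII:13475751-13476395 (median 4 over 99 sites), and chrII:12096270-12097126 and chrII:13485852-13487332 (median 3 over 124 and 107 minus-strand sites). The tie at 3 was broken by position, and the last of these reached a score of 40. Among arm regions with at least 20 sites, the densest, chrII:15105822-15106197, had 26.1 per 100 bp over both strands together (71 plus-strand and 27 minus-strand sites). It also had the highest score of either arm, 51, at position 15106134 in the triplet TAA. Its first 200 bases show short rows of listed adenosines between uncovered gaps.
Densest region of at least 20 sites, plus strand: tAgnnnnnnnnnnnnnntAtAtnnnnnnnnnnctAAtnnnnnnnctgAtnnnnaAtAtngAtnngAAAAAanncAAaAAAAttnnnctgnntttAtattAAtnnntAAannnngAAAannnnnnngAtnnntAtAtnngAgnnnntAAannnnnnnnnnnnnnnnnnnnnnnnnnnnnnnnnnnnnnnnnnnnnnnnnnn
The next densest with at least 20 sites were chrII:239314-239462, with 37 minus-strand sites at 24.8 per 100 bp, and chrII:1292468-1292564, with 23 minus-strand sites at 23.7 per 100 bp and every score at 1.

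The region nearest the left end of the chromosome, chosen after its sequence was seen, consisted of a tandem repeat. It ran from 239 to 333 with 22 plus-strand sites and a highest score of 3. Letters 26 bp apart were equal in 34 of 35 known pairs (97.1%), against at most 55.0% at the other shifts from 5 to 40 bp, and the row of spelled bases repeats accordingly.
Left end, chrII:238-334, plus strand: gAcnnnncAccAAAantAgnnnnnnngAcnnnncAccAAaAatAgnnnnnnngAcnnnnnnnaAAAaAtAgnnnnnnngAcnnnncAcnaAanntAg
The region nearest the right end, chrII:15238770-15239361, had 77 plus-strand sites, a median score of 2 and a highest score of 6.

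Site patterns also recurred between regions. Of the 348 arm regions, 32 shared 8 or more consecutive sites, with the same triplets and spacings, with another region of the table. Of these, 14 shared one with another arm region of chromosome II, in 8 pairs, and 29 with a region on another chromosome. The longest match within the arms covered 13 sites over 73 bp. It joined neighbouring regions on the left arm, chrII:3318131-3320374 and chrII:3321605-3322983, which lay 1.23 kb apart and carried it on opposite strands.
Copy at chrII:3319779-3319853, plus strand: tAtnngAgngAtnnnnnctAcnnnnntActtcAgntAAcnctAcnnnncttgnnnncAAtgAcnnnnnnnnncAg
Copy at chrII:3321604-3321678, minus strand: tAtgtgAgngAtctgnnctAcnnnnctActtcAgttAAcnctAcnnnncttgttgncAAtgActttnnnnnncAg
The second longest, 10 sites over 20 bp, joined regions 2250 kb apart on the right arm, again on opposite strands.
Copy at chrII:12872856-12872877, minus strand: cAtnntAAAAAannncAAaAAa
Copy at chrII:15120901-15120922, plus strand: cAtnntAAAAAannncAAaAAA
Other matches were short. The 8 sites shared by chrII:1827299-1829358 and chrII:15209637-15210109 spanned 8 bp, so they were a row of directly adjacent adenosines. A short row of adenosines can therefore count as a shared pattern. Whether the bases around these 8 sites were also shared was not tested. The placement of reads among regions with shared patterns was not tested.

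Density along the arms differed by side. The left arm had 27.8 regions per Mb, the right arm 40.7 and the centre 14.4. In sites the order was the same, with 861 per Mb on the left, 1280 on the right and 399 in the centre. The right arm held 59.5% of arm regions (exact 95% interval 54.1 to 64.7%, which covers counting error of regions only). Regions lay a median of 10.1 kb apart on the right arm and 19.8 kb apart on the left.

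**Figure D2:**
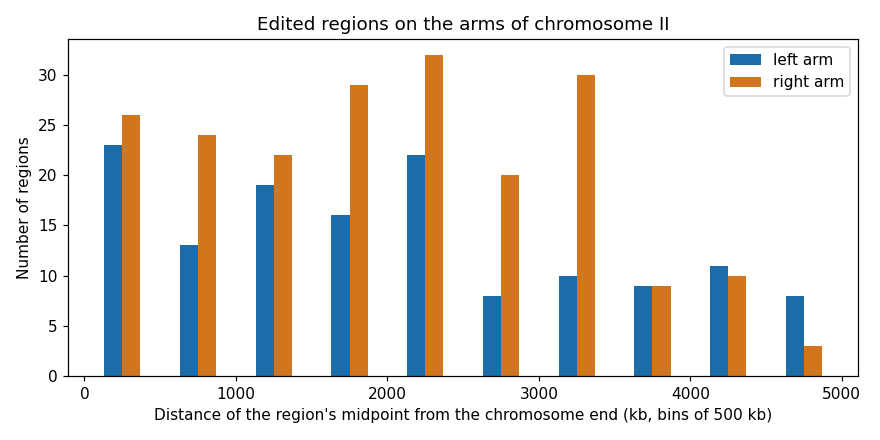
Number of regions (vertical axis) by distance of the region's midpoint from its chromosome end (kb, bins of 500 kb), for the left and right arm of chromosome II. The right arm holds 20 to 32 regions in each bin up to 3500 kb and 3 to 10 beyond; the left arm holds 8 to 23 in every bin.

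The 2 arms had different profiles toward the centre, as the plot by distance from the chromosome end shows. On the right arm the number per 500 kb stayed between 20 and 32 out to 3500 kb from the end, and was 9, 10 and 3 in the next bins. The left arm had 23 regions in its outermost 500 kb and 22 between 2000 and 2500 kb, and 8 to 11 in each bin farther in. The 5 densest intervals of 100 kb, 7 with those tied for the last place, lay on the right arm. From 14200001 to 14300000 there were 11 regions with 387 sites, and 10 regions each lay from 12200001 to 12300000 (480 sites) and from 12700001 to 12800000 (335 sites). The other 4 had 9 regions each: from 12800001 to 12900000 with 506 sites (418 of them on the minus strand), from 13300001 to 13400000 with 207, from 13400001 to 13500000 with 407, and from 13800001 to 13900000 with 218. A further 2 regions on each arm lay beyond 5000 kb. On each arm, 47 intervals held a region. The innermost region kept on the left arm (5033118 to 5033171, 10 sites) lay 46.6 kb inside the limit, and the first one beyond it (5281959 to 5282024, 4 sites) was 202 kb into the centre. On the right, the first region kept (10164167 to 10164224, 7 sites) lay 4.62 kb from the limit and the last one left out (10030605 to 10030660, 4 sites) 129 kb.

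Most regions were small. Sites per region ranged from 4 to 352 with a median of 13, against 14 over all 2710 regions of the table. Regions with fewer than 10 sites made up 34.2% of the arm regions but held 7.37% of the sites, against 34.4% and 7.53% in the whole table. At the other end, 25 regions with at least 100 sites held 36.8% of the sites, against 32.8% in the whole table. The left arm was the more uneven, with 47.3% of its sites in 11 regions of at least 100 sites, against 29.8% in 14 on the right. The median region had 12 sites over 89 bp on the left and 16 over 110 bp on the right. At least 30 sites were listed in 30 of 141 left regions (21.3%, exact 95% interval 14.8 to 29.0%) and 64 of 207 right regions (30.9%, 24.7 to 37.7%). This difference of -9.64 points did not pass after adjustment (Fisher's exact test, two-sided, p = 0.0499, adjusted p = 0.225 over 18 tests).

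**Figure D3:**
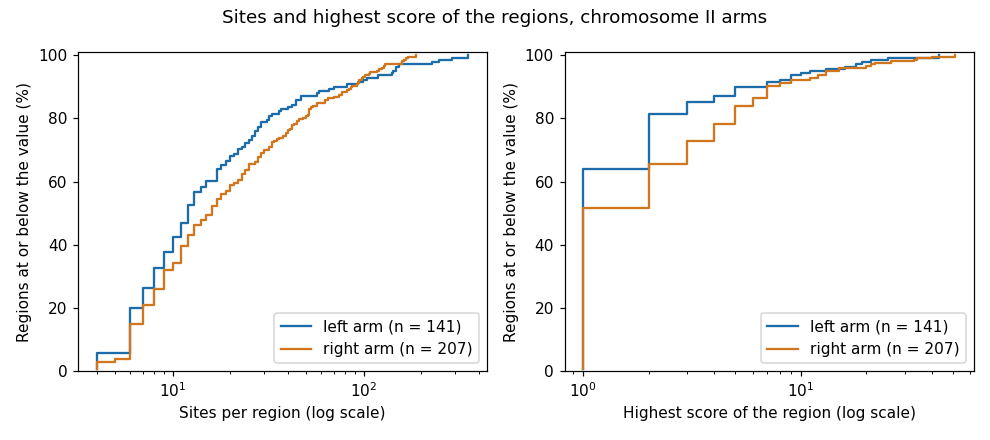
Cumulative share of regions (vertical axis, %) by number of sites per region (left panel) and by highest score of the region (right panel), both on log scales, for the 141 regions of the left arm and the 207 of the right arm. The left-arm curve starts higher, with 63.8% of regions having no score above 1 against 51.7% on the right.

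Sites were spread almost evenly over the strands. Plus-strand sites numbered 5671 and minus-strand sites 5214, so 52.1% lay on the plus strand, the same percentage as in the whole table. By region, 151 were plus-strand only, 140 minus-strand only and 57 had both. Among regions on a single strand, 57.4% (70 of 122) were plus-strand on the left arm and 47.9% (81 of 169) on the right (Fisher's exact test, p = 0.123, adjusted p = 0.369). Regions with both strands made up 13.5% of the left arm and 18.4% of the right (Fisher's exact test, adjusted p = 0.478), and held 42.5% of all arm sites. In 39 of these 57 regions the stretches listed on the 2 strands overlapped, and in 18 they lay apart. The less frequent strand supplied a median of 31.7% of the sites, over 40% in 17 regions and under 10% in 7.

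Scores were mostly at their minimum. On the arms 6760 sites (62.1%) had a score of 1, 1029 (9.45%) had at least 5 and 301 (2.77%) had at least 10. Over the whole table the shares were 64.2%, 8.63% and 2.76%. The arm sites with a score of at least 10 lay in 25 regions, 9 on the left arm and 16 on the right. The mean score was 2.21 on the left, 2.19 on the right and 1.69 in the centre of the chromosome, against 2.33 over the whole table. A highest score of at least 5 was reached by 18 of 141 left regions (12.8%) and 45 of 207 right regions (21.7%), a difference of -8.97 points that did not pass after adjustment (Fisher's exact test, p = 0.0342, adjusted p = 0.205).

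Adenosine was the commonest neighbour on both sides. On the arms it preceded 48.9% of sites and followed 52.5%, and the triplet AAA alone made up 27.9%. The whole table had 49.1%, 52.6% and 28.0%. Rows of directly adjacent listed sites reached 8, at positions 1828636 to 1828643 and 15209962 to 15209969 on the plus strand and 15114415 to 15114422 on the minus strand. Another listed site was directly adjacent on the same strand for 53.0% of arm sites and lay within 10 bp for 91.7%, against 52.9% and 91.5% in the whole table. Since no same-strand run on the arms had fewer than 4 sites, close spacing is in part a property of the list.

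Guanosine preceded 1090 of the 10885 arm sites and followed 1912 (17.6%). The excess of guanosine after over before was 7.60 points, against 7.70 in the whole table and 7.24 in the centre of the chromosome. It was present in both arms, with 19.6% after and 11.1% before on the left, and 16.2% and 9.29% on the right. By region, guanosine followed more sites than it preceded in 241 of 348, preceded more in 52, and was equal in 55. The counts were 96 of 141 regions on the left (68.1%) and 145 of 207 on the right (70.0%; Fisher's exact test, adjusted p = 0.868). Left-arm sites also had fewer adenosine neighbours, with 46.0% before and 49.7% after, against 50.9% and 54.3% on the right. Base composition of the regions was not corrected for, and neighbouring sites are not independent, so these shares were not tested site by site.

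**Figure D4:**
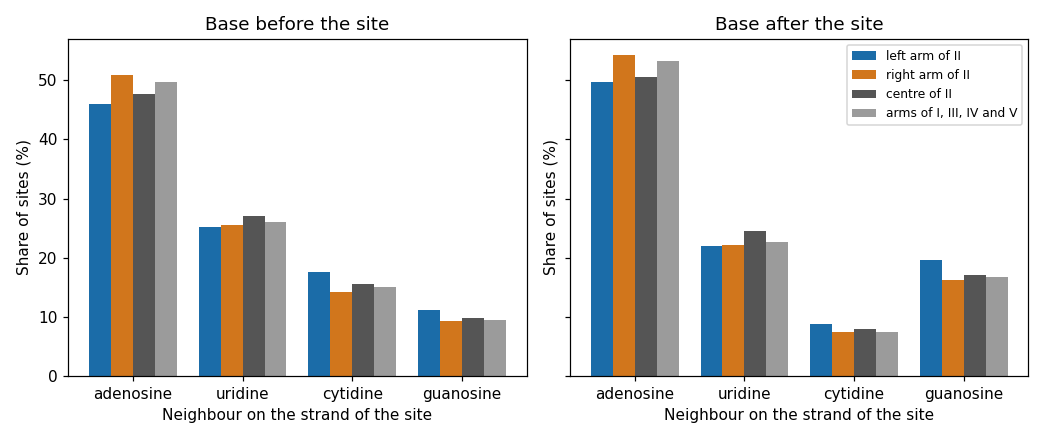
Share of sites (vertical axis, %) with each base before (left panel) and after (right panel) the site on its own strand, for the left arm, right arm and centre of chromosome II and for the arms of the other autosomes. Bars give one percentage over all sites of a group and have no replicate error; guanosine is higher after the site than before it in all 4 groups.

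Neighbours also varied with the score. Guanosine preceded 10.2% of the arm sites with a score of 1, 10.2% of those scored 2 to 4, 8.65% of those scored 5 to 9 and 6.98% of those with 10 or more. Cytidine after the site followed the same order, at 8.57%, 7.07%, 6.59% and 5.32%. Uridine before the site went the other way, from 24.5% through 26.7% and 27.5% to 28.9%. Guanosine after the site made up 16.8%, 17.7%, 23.4% and 19.3% in the same order. The class with scores of 10 or more had 301 sites from only 25 regions. Of these sites, 66 lay in chrII:1827299-1829358 alone, so every share of this class rests on few regions.

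The same was seen inside runs, where sites share their surroundings. In same-strand runs (sites at most 100 bp apart) with a highest score of at least 5, the log2 score of sites with a given neighbour was set against that of the run's other sites and averaged per region. Uridine before the site went with a higher score in 47 of 63 arm regions, with a median log2 difference of 0.29, against 0.23 over all such regions of the table. Guanosine after the site was likewise higher in 47 of 63 (median 0.28, whole table at 0.20). Uridine after the site was lower in 50 of 63 (median -0.24, whole table at -0.18), and cytidine after the site in 45 of 59 (median -0.42, whole table at -0.29). Guanosine before the site was lower in 40 of 61 (median -0.29, whole table at -0.33). Adenosine after the site was higher in 41 of 63 (median 0.15, whole table at 0.1). Before the site, adenosine was lower in 40 of 63 and cytidine higher in 34 of 62, with medians near 0 (-0.07 and 0.03). The whole table had medians of -0.02 and -0.07, and there cytidine before the site was lower in 273 of 471 regions and adenosine in 251 of 476. In the table uridine before was higher in 359 of 476 regions, guanosine after in 327 of 470 and adenosine after in 317 of 476. Uridine after was lower in 330 of 475, cytidine after in 313 of 440 and guanosine before in 330 of 455. The arm regions are among those of the table, so the table's values are no independent comparison.

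**Figure D5:**
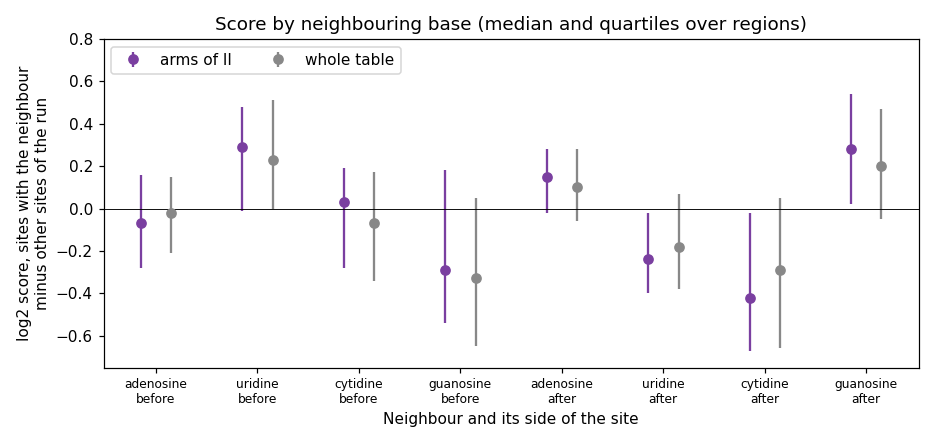
Difference in log2 score between sites with the named neighbour and the other sites of the same run (vertical axis), by neighbour and side; points are medians over regions and bars run from the lower to the upper quartile, for the arms of chromosome II and for the whole table. Uridine before, adenosine after and guanosine after lie above 0, and guanosine before, uridine after and cytidine after lie below it.

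The left and right arms, the arms and the centre of II, and the arms of II and those of the other autosomes were compared on 6 features of regions each, 18 tests in all. None passed an adjusted p of 0.05 (Fisher's exact test), and 4 had an unadjusted p under 0.05, including both left-right differences given above. Regions with at least 30 sites made up 27.0% of the arm regions of II and 33.2% of the 1769 arm regions of chromosomes I, III, IV and V (Fisher's exact test, p = 0.024, adjusted p = 0.205). A shared pattern was found in 32 of 348 arm regions (9.2%, exact 95% interval 6.37 to 12.7%) and in 1 of 73 in the centre (1.37%, 0.0347 to 7.40%; Fisher's exact test, p = 0.0276, adjusted p = 0.205). On the other autosomes' arms the share was 12.7% (Fisher's exact test, p = 0.0723, adjusted p = 0.26). Both strands were listed in 16.4% of the arm regions of II, 16.7% on the other autosomes' arms and 9.59% in the centre of II. A p above the threshold does not show that the groups were alike. Copies and close neighbours were counted as independent regions, so the p-values may be too small.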

How the data were processed

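The authors deposited a table of A-to-G positions for the whole series, with no header and no sample column; per the labels' protocols it rests on 6 mock and 6 RNase R libraries of rRNA-depleted RNA. It lists chromosome, a 1-base interval, 3 genome bases, a score and a strand. The authors' deposited score is a whole number of unstated meaning so it was never read as a number of reads. No caller or filter is stated, and the genome build was not found in the labels or the table. Depth is unknown, so an unlisted adenosine is not an unedited one. A human table was not used.

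Triplets were given on the plus strand; over 190611 covered bases none conflicted. Coordinates are 1-based. Python 3.11.15 with pandas 2.3.3 and scipy 1.17.1 merged regions at 1000 bp and ran two-sided Fisher's exact tests with Benjamini-Hochberg adjustment over 18 tests and exact (Clopper-Pearson) 95% intervals. The procedures were tested on simulated data. Named were the 10 regions with the most sites, the 5 with the highest median score and the 3 densest (at least 20 sites); pairing stretches, chromosome ends and the highest score were added after values were seen. The regions and features were chosen with earlier results of these data known. Alternatives were merging at 100 and 5000 bp, scores of at least 2, arms as the outer 25% at each end, and leaving out regions with shared patterns.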

Additional observations from a re-analysis of the deposited data

How the results depend on the processing

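No difference among the 18 passed an adjusted p of 0.05 under any of the 5 alternatives (Fisher's exact test, lowest adjusted p = 0.082, with arms as the outer 25% at each end). The share of arm regions on the right arm, 59.5%, was 59.1% with merging at 100 bp, 57.8% at 5000 bp and 62.4% with the outer 25%. Of 90 recomputed values, 74 kept their direction and 16 reversed, all differences that had not passed; the cause was not tested. Merging at 100 bp (552 arm regions) turned 4: left minus right in both strands (0.668 points) and in guanosine after over before (5.02), and plus strand against the other autosomes' arms (-0.849) and the centre (-8.77). A score of at least 2 left 155 arm regions and turned 9. These were left minus right in both strands (0.84), plus strand (-5.56) and at least 30 sites (5.55); against the other arms in both strands (5.46), at least 30 sites (0.216), highest score (0.262) and shared pattern (0.762); and against the centre in plus strand (-15.6) and at least 30 sites (-9.62). The outer 25% turned 2: both strands against the other arms (0.0334) and plus strand against the centre (-1.19). Leaving out regions with a shared pattern turned at least 30 sites against the centre (-4.43). No paired analysis was possible because the table does not separate mock from RNase R libraries or the stages, and for the same reason no replicate could be left out. The share on the right arm was not recomputed for a score of at least 2 or without shared patterns, and the pattern tests have no value once those regions are left out.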
